A study of Homo sapiens with 8 samples.

Results

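The nuclear genes of the respiratory chain were taken from the RNA table by name: rows beginning with NDUFA, NDUFB, NDUFC, NDUFS or NDUFV for complex I, SDHA to SDHD for complex II, UQCR for complex III, COX4 to COX8 for complex IV, and ATP5F, ATP5M or ATP5P for complex V. Leaving out 37 pseudogene names and 8 assembly factors of the NDUFAF series, the rule found 90 of the 25377 rows of the table. Of these, 82 encode protein subunits and 8 are antisense, divergent, read-through or non-coding transcripts. The genes were compared in Raji, an established Burkitt lymphoma B cell line, between unedited wild-type cells and cells from which CRISPR/Cas9 had removed the RGS-SE, a super-enhancer between RGS1 and RGS13 on chromosome 1. RNA-seq and ATAC-seq, which reads chromatin accessibility from transposase insertions, were each done on 2 wild-type and 2 knockout libraries, 8 libraries in all. The knockout cells had been electroporated with Cas9 and guide plasmids and selected with puromycin, and whether wild-type cells passed through these steps is not stated. The labels call the replicates biological and describe the edited cells as single clones. How many clones were used is not stated, and effects of the deletion and of a clone cannot be told apart.

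The respiratory chain passes electrons from NADH through complex I, or from succinate through complex II, to ubiquinone, then through complex III and cytochrome c to complex IV, where oxygen is reduced. Complexes I, III and IV pump protons across the inner mitochondrial membrane, and complex V, the ATP synthase, uses the returning protons to make ATP. All but complex II combine subunits encoded in the nucleus with a few encoded in mitochondrial DNA, and the nuclear genes lie scattered over the chromosomes.

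The sources used here give no values per library, so each level below is a mean or a fitted value for a genotype, and each difference is the log2 fold change of the authors' deposited tables with its standard error (SE). The headers do not state the direction. Positive values are read here as a higher level in the knockout, from 1 peak of the targeted interval, at chr1:192609102-192609836, whose fitted count was 622 in the genotype then called wild type and 0.186 in the other. The other 17 of the 18 peaks in that interval had log2 fold changes between -0.97 and 1.14. Under the same reading the RNA of RGS1, which like RGS13 lies inside the labelled interval, was higher in the knockout (log2 3.49, SE 0.18, DESeq2 adjusted p = 7.54e-79), and that of RGS13 was not called (log2 -0.20, SE 0.22). Under the opposite coding all directions below would be exchanged. The mean normalised counts sum to 32830399 over the RNA table and to 19927559 over the ATAC table. The 6 B cell markers examined were all present, the strongest, MS4A1, at 844 CPM (mean normalised counts per 1e6 of the RNA table's total), and of the markers of T and NK, epithelial, erythroid and muscle cells none exceeded 0.123 CPM. The strongest of 4 myeloid markers reached 1.17 CPM.

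Of the 90 genes, 85 had counts high enough for the authors' DESeq2 fit to give an adjusted p, among them 81 of the 82 subunits. The authors' deposited table called 16 of them at an adjusted p under 0.05, all of them subunits, with 11 higher and 5 lower in the knockout. That is 18.8% of the tested genes, close to the 19.2% called over all 17013 gene rows tested, of which 9.89% were called higher and 9.28% lower. The median log2 fold change of the 85 was 0.14, against 0.02 over all genes tested, and 53 were above 0 and 32 below. The fitted counts of the 85 tested genes summed in the knockout to 107.5% of the wild type, against 102.7% over all genes tested. The sums by complex below stand beside that same 102.7%. Of the 69 genes not called, 55 had a 95% interval that lay within 1 log2 unit of no change, and 25 had one within 1.5-fold of no change. In bulk RNA, less RNA per cell and fewer cells of a given state cannot be told apart.

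**Figure D1:**
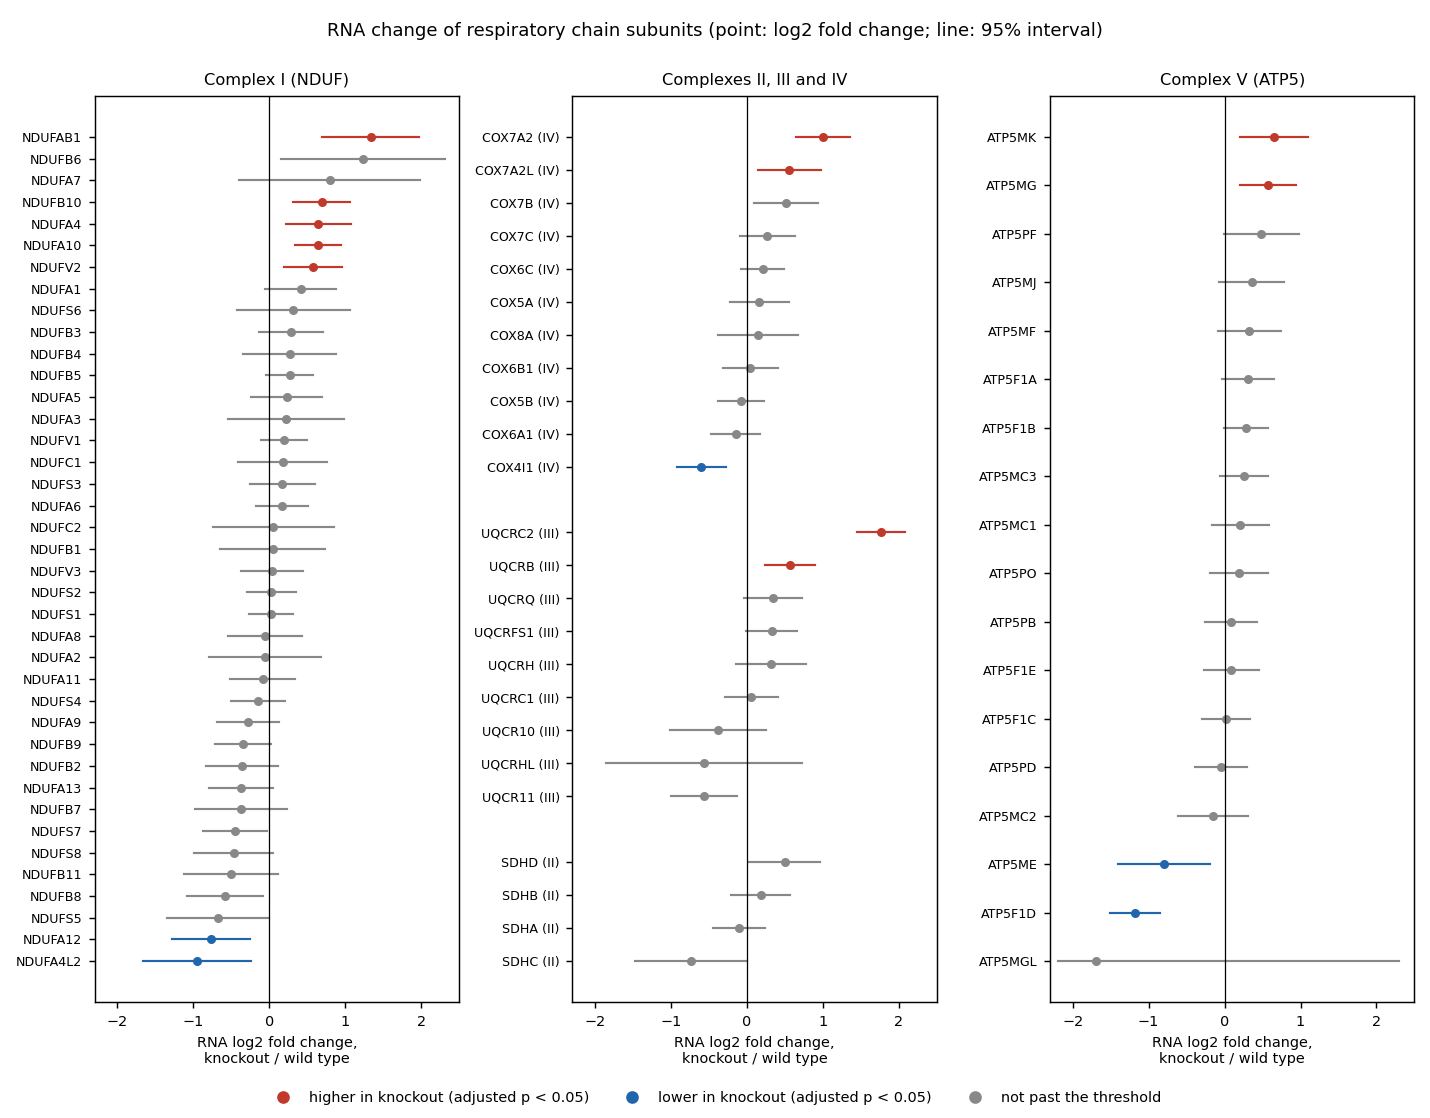
RNA log2 fold change of the 81 tested subunits (horizontal axis, knockout over wild type, log2 scale), sorted within each complex, with points for the estimate of the authors' deposited table and lines for its 95% interval. Among the coloured points, which passed an adjusted p of 0.05, UQCRC2 at 1.77 stands farthest to the right and ATP5F1D at -1.18 farthest to the left, and the line of ATP5MGL runs beyond the axis.

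Complex I, which takes electrons from NADH, had 5 of its 39 subunits called higher and 2 lower, with a median log2 fold change of 0.05 and fitted counts that summed in the knockout to 105.2% of the wild type. NDUFAB1, the mitochondrial acyl carrier protein that is also a complex I subunit, rose from a fitted count of 468 in the wild type to 1179 in the knockout, a 2.52-fold difference (log2 1.33, SE 0.33, DESeq2 adjusted p = 5.98e-04). NDUFB10, an accessory subunit of the membrane arm, rose from 1038 to 1675 (log2 0.69, SE 0.19, DESeq2 adjusted p = 0.00275). NDUFA10, another accessory subunit, rose from 3342 to 5224 (log2 0.64, SE 0.16, DESeq2 adjusted p = 4.43e-04). These 3 genes had the smallest adjusted p-values of the complex. NDUFV2, which carries an iron-sulphur cluster near the NADH site, was the only one of the 7 core subunits in the table to be called, with fitted counts of 2791 and 4166 (log2 0.58, SE 0.19, DESeq2 adjusted p = 0.0188). Of its exonic bases 28.4% are shared with another gene on the same strand, so part of its count may belong to that gene. NDUFA12, an accessory subunit of the arm that projects into the matrix, fell from 3322 to 1954 (log2 -0.77, SE 0.26, DESeq2 adjusted p = 0.0236). The other core subunits were not called. NDUFS1, the largest, had 11341 and 11520 (log2 0.02, SE 0.14), which made it the most precisely measured subunit of the complex, while NDUFS7 had -0.46 (SE 0.21) and NDUFS8 -0.47 (SE 0.27).

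NDUFA4 and NDUFA4L2 carry complex I names, although NDUFA4 is now placed with complex IV. NDUFA4 rose from a fitted count of 740 to 1159 (log2 0.65, SE 0.22, DESeq2 adjusted p = 0.0222), and NDUFA4L2, a paralogue known for its induction in low oxygen, fell from 419 to 216 (log2 -0.95, SE 0.36, DESeq2 adjusted p = 0.0448). Per 1000 bases of transcript (kb) the wild type held 364 of NDUFA4 and 444 of NDUFA4L2, and the knockout 569 and 229. The order of the pair thus turned between the genotypes per kb only, as the fitted count of NDUFA4 was the higher in both. The values per kb rest on canonical transcripts of 2035 bases for NDUFA4 and 943 for NDUFA4L2. No ATAC peak covered the start of that NDUFA4L2 transcript. Neither gene's call lay far inside the threshold. Counted with complex IV, they leave complex I with 4 higher and 1 lower of 37, and give complex IV 3 higher and 2 lower of 13 tested.

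None of the 4 subunits of complex II, succinate dehydrogenase, was called, and together their fitted counts in the knockout came to 105.0% of the wild type. SDHA, the flavoprotein that oxidises succinate, had fitted counts of 6348 and 5897 (log2 -0.11, SE 0.17). SDHB, the iron-sulphur subunit, had 2716 and 3076 (log2 0.18, SE 0.20). The membrane anchors SDHC and SDHD had log2 fold changes of -0.74 (SE 0.38) and 0.50 (SE 0.24), on opposite sides of 0. SDHC was the weakest of the 4 at 149 mean normalised counts per kb, and its interval reached from -1.47 to -0.00118, so the table leaves its change poorly bounded.

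Complex III, which passes electrons from ubiquinol to cytochrome c, had 2 of 9 subunits called higher and none lower. UQCRC2, the second core protein of the complex, rose from a fitted count of 1701 to 5789, a 3.40-fold difference (log2 1.77, SE 0.16, 95% interval 1.45 to 2.08, DESeq2 adjusted p = 4.58e-26). It had the smallest adjusted p of all the respiratory chain genes. UQCRC1, the partner core protein, had 2051 and 2136 (log2 0.06, SE 0.18, DESeq2 adjusted p = 0.894), and the difference between the pair was not tested. UQCRB, a small subunit near the ubiquinone site, rose from 2154 to 3192 (log2 0.57, SE 0.17, DESeq2 adjusted p = 0.00553). Fitted counts of the complex summed in the knockout to 149.4% of the wild type, and to 116.3% without UQCRC2, so 1 gene carried most of the excess. UQCR11, a small membrane subunit, lay just outside the threshold (log2 -0.56, SE 0.22, DESeq2 adjusted p = 0.0560).

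In complex IV, cytochrome c oxidase, 2 of 11 tested subunits were called higher and 1 lower. COX7A2, the widely expressed isoform of subunit 7A, rose from a fitted count of 1730 to 3464 (log2 1.00, SE 0.18, DESeq2 adjusted p = 8.32e-07). COX7A2L, a related protein that joins complexes III and IV into supercomplexes, had 2546 and 3748 (log2 0.56, SE 0.21, DESeq2 adjusted p = 0.0469). COX4I1, the common isoform of subunit 4, fell from 19107 to 12615 (log2 -0.60, SE 0.17, DESeq2 adjusted p = 0.00340). COX4I1 had the highest mean normalised count per kb of all the subunits, 20788, and its fall outweighed the rises: over the complex, knockout counts came to 96.8% of the wild type, and to 113.0% without it. COX6C (log2 0.21, SE 0.15), COX5B (log2 -0.08, SE 0.15) and COX6B1 (log2 0.05, SE 0.18), all abundant, were not called. COX7B, at 498 per kb the weakest tested subunit of the complex, lay just outside the threshold (log2 0.51, SE 0.22, DESeq2 adjusted p = 0.0802).

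Complex V, the ATP synthase, had 2 of 18 subunits called higher and 2 lower, and 13 of the 18 estimates were above 0. ATP5F1D, the delta subunit of the rotor stalk in the F1 part, fell from a fitted count of 3918 to 1735, a 2.26-fold difference (log2 -1.18, SE 0.17, DESeq2 adjusted p = 1.37e-10). The other 4 subunits of F1 were not called. ATP5F1B, the catalytic beta subunit, had 16429 and 20014 (log2 0.28, SE 0.15, DESeq2 adjusted p = 0.178), and ATP5F1A, the alpha subunit, 15494 and 19192 (log2 0.31, SE 0.18, DESeq2 adjusted p = 0.234). Among the small membrane subunits, which join ATP synthases into dimers, ATP5MG rose from 1526 to 2268 (log2 0.57, SE 0.19, DESeq2 adjusted p = 0.0152) and ATP5MK from 835 to 1314 (log2 0.65, SE 0.23, DESeq2 adjusted p = 0.0258). ATP5ME, another of them, fell from 1590 to 915 (log2 -0.80, SE 0.31, DESeq2 adjusted p = 0.0496), the call nearest to the threshold. Another gene on the opposite strand covers 61.3% of the exonic bases of ATP5ME, and whether the counting used strand is not stated. Fitted counts of the complex summed in the knockout to 112.3% of the wild type.

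**Figure D2:**
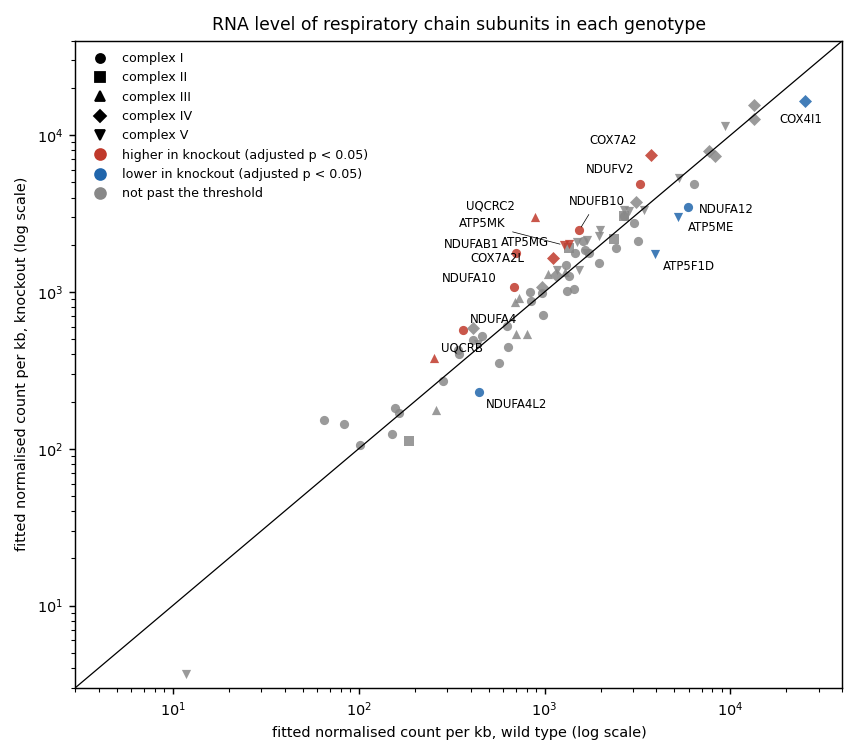
Fitted normalised count per kb of the 81 tested subunits in the wild type (horizontal axis, log scale) and the knockout (vertical axis, log scale), with symbols for the complex and the diagonal marking equal levels. COX4I1 falls from 25042 to 16534 at the top right, UQCRC2 climbs from 889 to 3024, and most points lie along the diagonal.

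The levels of the subunits differed widely, as the plot of counts per kb in each genotype shows. Among tested subunits of complex V the mean normalised count per kb ran from 7.72 for ATP5MGL to 10359 for ATP5F1B, and of complex I from 104 for NDUFC2 to 5632 for NDUFA13. The median was 5621 per kb in complex IV, 2020 in complex V, 1952 in complex II, 918 in complex I and 778 in complex III. Of the paralogues with tissue-restricted expression, COX4I2, COX6A2, COX6B2, COX7B2 and COX8C have no row in the table, and COX7A1, the heart and muscle isoform of subunit 7A, was near the floor at 1.43 per kb and untested. The Raji libraries thus held the widely expressed isoforms COX4I1, COX6A1, COX6B1, COX7A2, COX7B and COX8A. ATP5MC1, ATP5MC2 and ATP5MC3, which encode the same mature c subunit of the rotor ring, had 2121, 1464 and 1272 per kb, with log2 fold changes of 0.21 (SE 0.19), -0.15 (SE 0.23) and 0.25 (SE 0.16), none called. UQCRH, the hinge protein of complex III, was at 1169 per kb (log2 0.31, SE 0.23) and its near copy UQCRHL at 218 (log2 -0.56, SE 0.66), and reads of the pair may be split between them. By name, 50 of the 82 subunits have at least 1 pseudogene in GENCODE, up to 17 for COX6C, and 11 of the 16 called subunits do, so counts of these genes are uncertain to the extent that reads could be assigned to a copy.

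Several of the called genes lay in stretches of the genome where accessibility had shifted as a whole. As a measure of the region, the median log2 fold change of ATAC peaks outside promoters within 5 Mb of each start was taken. It lay at least 0.5 from 0 for 7 of the tested genes, and 6 of these were called, all in the direction of their region. Of the 78 genes in the remaining regions 10 were called, or 12.8%. Over all genes tested, 42.5% of 1472 genes in regions past the same limit were called and 17.0% of 15538 elsewhere. Of the 625 called in the former, 602 also had the sign of their region. The limit of 0.5 was chosen after the values were seen, and whether copy number or clone differences had a part in these regions was not tested.

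Chromosome 16 held 4 subunits, and all were called with the sign of their own stretch of the chromosome. NDUFB10 (chr16:1959538-1961975), with an RNA log2 fold change of 0.69, lay where the surrounding peaks had a median of 1.10. UQCRC2 (chr16:21953288-21983660) and NDUFAB1 (chr16:23581014-23596316), at 1.77 and 1.33, lay where the medians were 0.80 and 0.64. COX4I1 (chr16:85798633-85807068), at -0.60 near the other end of the chromosome, lay where the median was -0.51. COX7A2 (chr6:75237675-75250323) had 1.00 against 0.58 around it, and NDUFA10 (chr2:239892450-240025743) had 0.64 against 0.78. NDUFB9, an accessory subunit of complex I on chromosome 8, was in the remaining region of this kind, with a median of -0.75, and its own RNA had -0.34 (SE 0.19, DESeq2 adjusted p = 0.213).

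Measured against the accessibility of their surroundings, these genes separated. After the local ATAC median was subtracted before the Wald test, UQCRC2 kept 0.97 and its call, NDUFAB1 kept 0.69 and COX7A2 0.42 without a call, and COX4I1 was left with -0.09. NDUFA10 turned to -0.13 and NDUFB10 to -0.41, neither called. The subtraction takes RNA and accessibility to shift in equal measure on the log2 scale and leaves the SE of the RNA unchanged. Whether they do so was not tested. ATP5F1D (chr19:1241746-1244825) lay where the median was 0.11, opposite to its own fall, and had -1.28 after the subtraction. Across the 85 genes the RNA log2 fold change and the local median had a Pearson's r of 0.41 and a Spearman's rho of 0.19, against 0.25 and 0.17 over 10673 genes with a mean of at least 100, where neighbouring genes share their peaks.

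**Figure D3:**
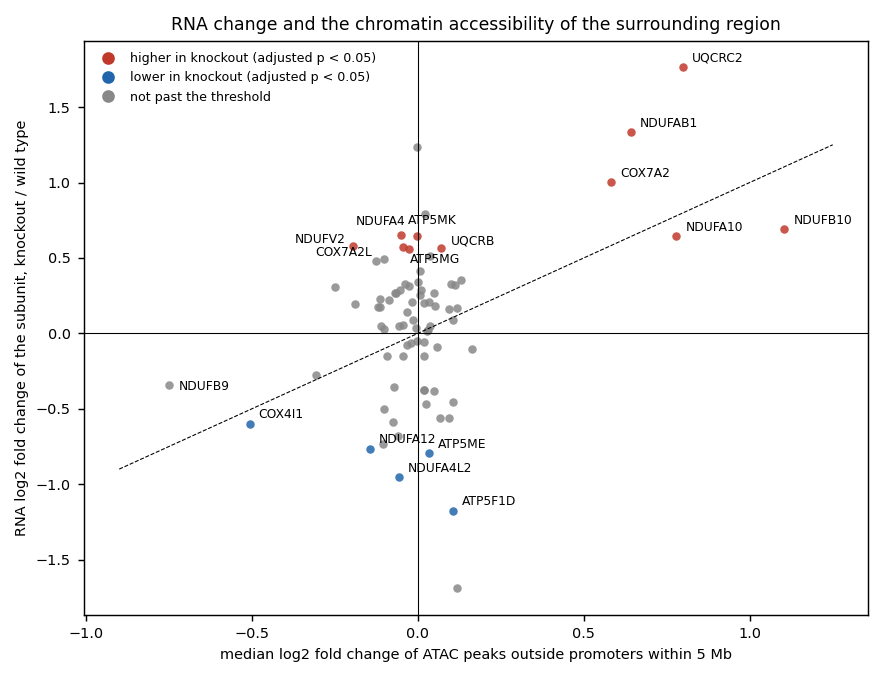
RNA log2 fold change of each tested subunit (vertical axis) against the median log2 fold change of ATAC peaks outside promoters within 5 Mb of its start (horizontal axis), with colours for the RNA call and a dashed line of equal values. The 5 subunits called higher to the right lie at medians of 0.58 to 1.10, COX4I1 and NDUFB9 lie to the left, and ATP5F1D falls although its region is at 0.11.

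Base composition also ran with the RNA values. Across the 85 genes the log2 fold change fell with the GC content of the transcript (Pearson's r -0.41, Spearman's rho -0.45), as it did over 10675 genes with a mean of at least 100 (r -0.24, rho -0.38). ATP5F1D, the called subunit with the largest fall, has a transcript of 69.5% GC, NDUFA4L2 one of 63.2%, while UQCRB, ATP5MG, NDUFA4 and COX7A2L, all called higher, have 38.6% to 39.4%. Other called genes went against this order, NDUFB10 being higher at 59.0% GC and NDUFA12 lower at 42.7%. When each fold change was centred on genes of like GC content, 9 of the 16 calls remained. Those of UQCRB, ATP5MG, NDUFA4, COX7A2L, NDUFV2, NDUFA4L2 and ATP5ME did not. UQCRC2 and ATP5F1D were the only subunits to keep their calls under all 11 alternative settings for single genes, whereas NDUFA4L2 and COX7A2L lost theirs under 8.

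Accessibility was next read at the promoters. The ATAC table holds 49 peaks annotated to a promoter and transcription start site (promoter-TSS) under the names of 48 of the 90 genes, among 8420 such peaks in all. The authors' deposited table called 7 of the 49 higher and 7 lower, or 28.6%, against 34.2% of all promoter-TSS peaks, of which 14.2% were higher and 20.0% lower. Their median log2 fold change was -0.07, and that of all promoter-TSS peaks -0.06, with 5176 of the 8420 below 0. In complex V the 9 peaks that carry a subunit's name were all below 0, 4 of them called lower, with a median of -0.28, while in complex I 5 of 25 were called higher and 2 lower.

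The strongest rises at promoters were again on chromosome 16. The NDUFAB1 promoter peak (chr16:23596001-23597398) rose from a fitted count of 500 to 941 (log2 0.91, SE 0.10, DESeq2 adjusted p = 4.24e-19). The UQCRC2 peak (chr16:21952234-21953683) rose from 530 to 923 (log2 0.80, SE 0.10, DESeq2 adjusted p = 6.07e-13), which equals the 0.80 of its surroundings, while its RNA rose by 1.77. COX7A2 rose from 1950 to 2720 (log2 0.48, SE 0.06, DESeq2 adjusted p = 4.98e-16) and NDUFA10 from 462 to 607 (log2 0.39, SE 0.11, DESeq2 adjusted p = 0.00189), both by less than their regions. These 4 genes were higher in both assays.

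At NDUFS4, an accessory subunit of complex I, the promoter peak rose from 200 to 340 (log2 0.77, SE 0.16, DESeq2 adjusted p = 1.94e-05) in a region whose median was -0.09. Its RNA was not called, with a log2 fold change of -0.15 (SE 0.18, DESeq2 adjusted p = 0.668). NDUFS7, a core subunit with the last iron-sulphur cluster before ubiquinone, and NDUFS5, an accessory subunit, likewise had higher promoter peaks, at 0.36 (SE 0.10, DESeq2 adjusted p = 0.00227) and 0.32 (SE 0.12, DESeq2 adjusted p = 0.0296). Their RNA estimates were -0.46 (SE 0.21) and -0.68 (SE 0.34), neither called.

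Falls at promoters were led by ATP5F1D, whose peak (chr19:1241298-1241924) dropped from 717 to 461 (log2 -0.64, SE 0.11, DESeq2 adjusted p = 1.01e-07), and by COX4I1, from 908 to 629 (log2 -0.53, SE 0.10, DESeq2 adjusted p = 3.60e-07). Both genes also fell in RNA. NDUFV2 went opposite ways, with the promoter peak nearest to its start down from 1404 to 1086 (log2 -0.37, SE 0.07, DESeq2 adjusted p = 5.06e-06) and its RNA up. A weaker promoter-TSS peak of NDUFV2, with a mean of 69.9, was not called (log2 0.24, SE 0.33). ATP5MC2, ATP5F1E and ATP5PD had peaks lower by 0.28 to 0.29 on the log2 scale, and none of the 3 was called in RNA. Over the 48 genes, 30 were called in neither assay, 4 were higher in both, 2 lower in both and 1, NDUFV2, was called in opposite directions. In RNA alone 3 were higher and 1 lower, and at the promoter alone 3 were higher and 4 lower. The same tally over all genes is not given here. The RNA and promoter log2 fold changes had a Pearson's r of 0.49 and a Spearman's rho of 0.24 over the 48 genes, against 0.59 and 0.34 over 5886 genes.

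**Figure D4:**
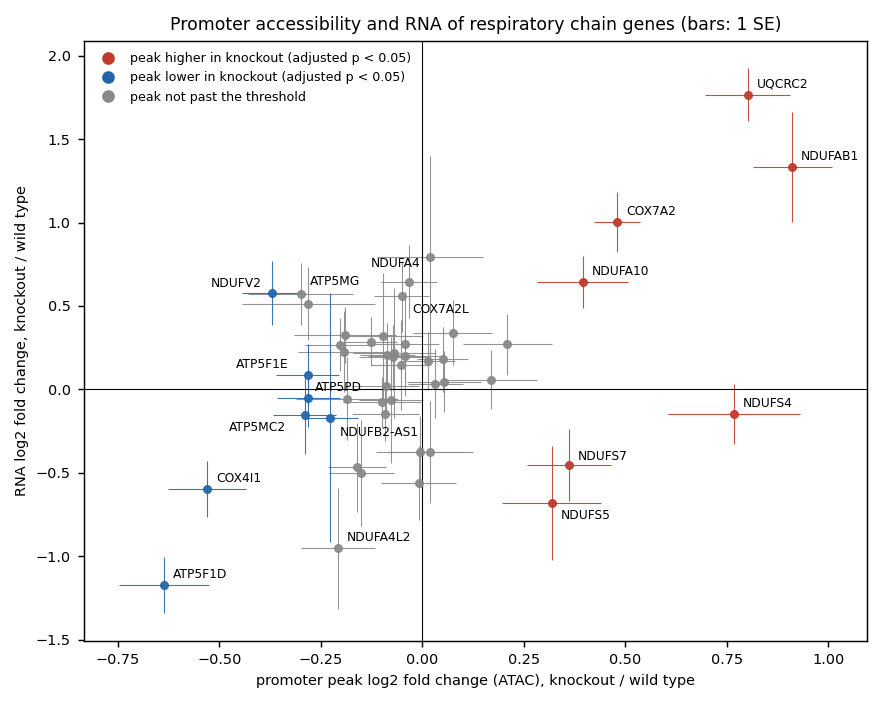
RNA log2 fold change (vertical axis) against the log2 fold change of the promoter peak nearest to the start (horizontal axis) for the 48 genes with a promoter-TSS peak, knockout over wild type, with bars of 1 SE and colours for the call of the peak. UQCRC2, NDUFAB1, COX7A2 and NDUFA10 lie high in both, ATP5F1D and COX4I1 low in both, and NDUFS4, NDUFS5 and NDUFS7 have higher peaks with RNA estimates below 0.

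The annotation hides part of the promoters. A peak of any kind covered the start of GENCODE's canonical transcript in 77 of the 82 subunits, and for 19 subunits that peak carries the name of a neighbouring gene or an older symbol. NDUFB9 shares its start peak with TATDN1, and that peak fell (log2 -0.93, SE 0.11, DESeq2 adjusted p = 1.19e-14). The peak over the NDUFB10 start is annotated as intronic and rose (log2 1.10, SE 0.14, DESeq2 adjusted p = 4.50e-14), as much as its region. With that annotation it is itself among the 200 peaks behind the regional median. ATP5ME shares its start peak with MYL5 (log2 -0.07, SE 0.10) and ATP5MK with PDCD11 (log2 0.08, SE 0.08), and neither peak was called although both subunits were called in RNA. No peak covered the canonical starts of SDHC, UQCRHL, COX7A1 or ATP5MGL. Nor did one cover that of NDUFA4L2, whose own promoter-TSS peak (log2 -0.21, SE 0.09, DESeq2 adjusted p = 0.0605) lies over the outermost start of the gene instead. Over the canonical starts of 17 complex V subunits, whatever gene the peak is named for, 15 peaks were below 0 and 2 above. The median was -0.14. None was called higher and 4 were called lower, or 23.5%, against 20.0% of all promoter-TSS peaks. Of those 8420 peaks, 5176 were below 0. At the canonical starts of complex I, 14 peaks were above 0 and 24 below, with 6 called higher and 3 lower. Above and below 0 were 1 and 2 in complex II, 5 and 3 in III, and 5 and 6 in IV. Called higher and lower were 1 and 0 in complex III and 2 and 1 in IV.

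Promoter sequences from RefSeq (GRCh38.p14), from 250 bases before to 50 after the start, were found for 65 of the 82 subunits. Of these, 4 are shown 5′ to 3′ because they carry the contrasts described above: UQCRC2 and NDUFAB1, neighbours on chromosome 16 with rising RNA and promoter peaks, COX4I1 on the same chromosome with both falling, and ATP5ME, called lower in RNA with a start peak that was not called. Capitals mark matches on either strand to the letters searched, which were GCGCATGCG for the core of an NRF1 site, CCGGAAG for an ETS or GABP site, AAGATGGC for YY1, GGGCGG for the SP family and CCAAT for NF-Y.
UQCRC2: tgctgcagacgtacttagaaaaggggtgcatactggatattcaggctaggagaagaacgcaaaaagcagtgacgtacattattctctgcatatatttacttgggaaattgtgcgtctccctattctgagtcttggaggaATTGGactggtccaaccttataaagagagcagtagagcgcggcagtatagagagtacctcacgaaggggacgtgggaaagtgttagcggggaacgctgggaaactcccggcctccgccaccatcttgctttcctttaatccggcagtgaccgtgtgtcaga
NDUFAB1: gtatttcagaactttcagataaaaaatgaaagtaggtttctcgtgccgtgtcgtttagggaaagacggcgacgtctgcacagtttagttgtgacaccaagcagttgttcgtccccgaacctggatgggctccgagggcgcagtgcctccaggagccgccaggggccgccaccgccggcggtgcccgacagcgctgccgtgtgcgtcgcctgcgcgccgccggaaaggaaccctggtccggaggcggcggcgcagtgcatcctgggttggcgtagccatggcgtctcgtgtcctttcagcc
COX4I1: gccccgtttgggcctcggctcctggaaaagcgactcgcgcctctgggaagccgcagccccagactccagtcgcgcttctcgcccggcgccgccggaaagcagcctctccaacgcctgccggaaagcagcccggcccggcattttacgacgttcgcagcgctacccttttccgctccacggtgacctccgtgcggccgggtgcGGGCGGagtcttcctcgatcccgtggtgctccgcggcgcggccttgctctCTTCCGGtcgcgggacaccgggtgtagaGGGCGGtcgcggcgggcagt
ATP5ME: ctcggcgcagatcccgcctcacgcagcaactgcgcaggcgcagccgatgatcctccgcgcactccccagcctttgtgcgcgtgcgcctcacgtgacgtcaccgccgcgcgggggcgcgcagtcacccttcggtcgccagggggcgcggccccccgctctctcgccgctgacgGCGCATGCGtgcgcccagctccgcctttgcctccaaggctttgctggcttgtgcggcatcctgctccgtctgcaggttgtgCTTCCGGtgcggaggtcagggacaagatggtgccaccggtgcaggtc
The UQCRC2 window (chr16:21953111-21953410, plus strand) holds a single match, an inverted CCAAT box, and the NDUFAB1 window (chr16:23596267-23596566, minus strand) holds none. The COX4I1 window (chr16:85799445-85799744, plus strand) has an ETS match beginning 2 bases after the start and a pair of SP matches. The ATP5ME window (chr4:674227-674526, minus strand) has an NRF1 core 78 bases before the start and an ETS match 3 bases after it.

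Most of the letters searched, CCAAT apart, were in a larger share of these promoters than of promoters at large, a comparison that was not tested. NRF1, a regulator of nuclear genes for mitochondria, had its core in 10 of the 65 subunit promoters, or 15.4%, against 1.92% of all 35116 promoters of the same length. The ETS or GABP letters were in 20, or 30.8%, against 10.3%, and the YY1 letters in 11, or 16.9%, against 2.89%. The SP letters were in 61.5% against 45.0%, and CCAAT in 32.3% against 34.6%. Of the 12 called subunits with a sequence, 1 had the NRF1 core, 4 the ETS letters and none the YY1 letters. The window of COX7A2 (chr6:75250249-75250548), which had no match, held no ATAC peak. It lies apart from the promoter peak of that gene (chr6:75243287-75244598). The median RNA log2 fold change was -0.02 for the 10 subunits with the NRF1 core and 0.17 for the 55 without it, and it was 0.10 for the 20 with the ETS letters and 0.18 for the 45 without. For the YY1 letters it was 0.17 both with and without, for SP 0.12 and 0.22, and for CCAAT 0.09 and 0.18. A match is a string of letters, and no binding was measured.

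None of the 8 rows that are not protein subunits was called. The strongest, ATP5MF-PTCD1, at 14.1 CPM, is a read-through transcript sharing 87.9% of its exonic bases with other genes of its strand, and had 571 and 358 (log2 -0.68, SE 0.30, DESeq2 adjusted p = 0.0955). NDUFA6-DT (log2 0.19, SE 0.70), NDUFB2-AS1 (log2 -0.17, SE 0.75) and NDUFV2-AS1 (log2 -1.24, SE 1.00) each had a mean under 1.40 CPM. NDUFC2-KCTD14, NDUFV1-DT, UQCRFS1-DT and COX8BP had means of at most 0.0949 CPM and were not tested. The promoter peak named for NDUFB2-AS1 covers the NDUFB2 start as well and was lower (log2 -0.23, SE 0.07, DESeq2 adjusted p = 0.00433).

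Genes that build and feed the chain were called at a share near that of all genes. Over 7 lists with 129 genes tested, the authors' deposited table called 14 higher and 8 lower, or 17.1%, with a median log2 fold change of 0.01. Of 60 assembly factors, which help put the complexes together, 4 were higher and 5 lower. DMAC1 (log2 -1.17, SE 0.24, DESeq2 adjusted p = 2.25e-05), of complex I assembly, and CMC2 (log2 -1.05, SE 0.21, DESeq2 adjusted p = 1.93e-05), of complex IV assembly, fell, whereas NDUFAF4 (log2 0.81, SE 0.18, DESeq2 adjusted p = 8.42e-05) and LYRM7 (log2 0.78, SE 0.20, DESeq2 adjusted p = 0.00101), which loads the Rieske protein into complex III, rose. Cytochrome c was called in RNA as well, CYCS rising from a fitted count of 6265 to 9185 (log2 0.55, SE 0.16, DESeq2 adjusted p = 0.00607). CYC1, the cytochrome c1 of complex III, whose name the rule does not take, fell from 2821 to 1502 (log2 -0.91, SE 0.17, DESeq2 adjusted p = 4.24e-06) in a region with an ATAC median of -0.85.

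In coenzyme Q synthesis 3 of 13 genes were higher and none lower, led by COQ7, a hydroxylase of the pathway, which rose from 162 to 674 (log2 2.05, SE 0.30, DESeq2 adjusted p = 6.17e-10) on chromosome 16 in a region with a median of 0.95. Of 21 tested genes of the TCA cycle and pyruvate dehydrogenase, 2 were higher, PDHX (log2 0.58, SE 0.17, DESeq2 adjusted p = 0.00759) and PDK1 (log2 0.49, SE 0.18, DESeq2 adjusted p = 0.0364). Of 7 carriers and porins, 2 were higher, VDAC3 (log2 1.08, SE 0.20, DESeq2 adjusted p = 1.16e-06) and SLC25A3 (log2 0.40, SE 0.15, DESeq2 adjusted p = 0.0457). In mitochondrial transcription and replication, 13 genes, MTERF4 rose (log2 1.07, SE 0.18, DESeq2 adjusted p = 9.66e-08). MTERF2, at a mean of 1.04 CPM, fell from a fitted count of 68.1 to 0.174 (DESeq2 adjusted p = 6.92e-06). TFAM, which packages and transcribes mitochondrial DNA, was not called (log2 0.12, SE 0.18, DESeq2 adjusted p = 0.742).

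Among 10 tested regulators of mitochondrial biogenesis, MYC was higher (log2 0.41, SE 0.15, DESeq2 adjusted p = 0.0424) and YY1 lower (log2 -0.41, SE 0.15, DESeq2 adjusted p = 0.0384). NRF1 (log2 -0.13, SE 0.24) and GABPA (log2 -0.32, SE 0.16) were not called, and PPARGC1A, a coactivator of the programme, was near the floor at 0.102 CPM. Of the 22 called genes of these lists, 10 lay in regions whose ATAC median was at least 0.5 from 0, which held 16 of the 129 genes. Of the 10, 9 had the sign of their region, as did 602 of the 625 called over all genes tested in such regions. None of the 13 protein genes of mitochondrial DNA is in the table used here, so the subunits made inside the organelle were not analysed here.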

How the data were processed

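Raji cells of either genotype, each with 2 RNA-seq and 2 ATAC-seq libraries, were compared from the authors' result tables. RNA libraries were poly(A)-selected and made with a stranded kit, per the labels' protocols; whether counting used strand, and which tool called peaks, is not given in the sources used here. The submitters' processing notes list STAR, featureCounts, DESeq2, Bowtie2 and HOMER, the trimmers Trimmomatic, cutadapt and Trim Galore, and GRCh38 or hg38, without versions. Per the file headers, the deposited signal of a gene or peak is DESeq2's mean normalised count over the libraries. The authors give the fold change and its SE on the log2 scale. The deposited score is the Wald statistic: dividing each RNA fold change by its SE returned it with a largest deviation of 8.17e-14. The deposited p-value is that of the two-sided Wald test, and the authors' adjusted p was recomputed as the Benjamini-Hochberg value over the genes with an adjusted p. The other deposited measure is each peak's distance to the nearest start site in bp, per the file headers.

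Each gene's mean was split between the genotypes by its fold change, giving fitted counts and taking each genotype as 2 of the 4 libraries. CPM is the mean divided by the table's sum. Counts per kb use the canonical transcript of GENCODE release 44 (GRCh38.p14), in which all 25377 gene identifiers were found; 22 rows repeat a pseudoautosomal gene on chromosome Y, none of them a member, and such a gene was counted once in companion lists. The planned quasi-likelihood test needs counts per library, so the deposited Wald test was used, at an adjusted p under 0.05. Alternative settings recomputed it from the fold change and SE, with p-values adjusted over all genes or peaks. The plain, 1.5-fold, scaled and mean-count forms of the test were run on simulated data, and centring on local medians was not. Depth per library is unknown. Genes named are those called, the strongest, weakest and most precise of each complex, paralogue sets, the largest promoter changes, the rows that are not subunits and the called genes of companion lists. NDUFB9, NDUFB10, UQCR11, COX7B, UQCRC1, TFAM, NRF1 and other genes not called were added to describe a complex, region or list. The members and lists were chosen with earlier results of these data known. Python 3.11.15, numpy 2.4.6, pandas 2.3.3 and scipy 1.17.1 were used.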

Additional observations from a re-analysis of the deposited data

How the results depend on the processing

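No paired analysis was possible because the tables hold no values per library; leaving out a library, and refits with edgeR or DESeq2, were not run for the same reason. Of the 16 RNA calls, 8 (6 higher, 2 lower) remained at an adjusted p under 0.01, 2 (1 and 1) in a test against a 1.5-fold change and 3 (2 and 1) after scaling the statistics by their robust SD. Centring by GC content gave 10 calls (7 higher, 3 lower), 9 of them among the 16, with NDUFV1 new. On genes within 5 Mb it gave 8 (6 and 2), 6 of them among the 16, with ATP5F1A and ATP5F1B new. Both settings were chosen after seeing the data. ATP5F1A and UQCR11 were also newly called after local ATAC centring. The lower calls numbered 3 after centring on the local ATAC median and after centring by level of mean count. They numbered 6 after centring on the overall median, after centring by chromosome, and with a minimum mean of 100. Of the promoter calls, 1 (1 higher, 0 lower) remained against 1.5-fold and 2 (2 and 0) after scaling, and the higher calls numbered 4 after local ATAC centring. Local ATAC centring reversed the RNA of NDUFA10 (-0.13) and NDUFB10 (-0.41) and the promoter peaks of NDUFA10 (-0.38) and COX7A2 (-0.10). Centring on genes within 5 Mb reversed the RNA of COX4I1 (0.086) and NDUFB10 (-0.060). The cause of these shifts was not tested. The medians kept their sign in every setting run. With 2 libraries a group, the median SE was 0.22 for RNA and 0.09 for promoter peaks.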

Other observations

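The RNA values of the subunits are given here by chromosome, with no test between chromosomes. On chromosome 19, which holds 10 of them, 4 estimates were above 0 and 6 below, with a median log2 fold change of -0.23, while all tested genes of that chromosome had a median of -0.12. Their transcripts had a median GC content of 58.8%, against 57.8% over all tested genes of chromosome 19. On chromosome 12, 5 of 6 were below 0 (median -0.22, against -0.04 over all tested genes there), among them NDUFA12 and NDUFA4L2. On chromosome 2, 5 of 6 were above 0 (median 0.27, against 0.13), and on chromosome 11, 6 of 7 (median 0.17, against -0.10). Chromosome 21 holds ATP5PF, ATP5PO and NDUFV3, all above 0 and none called.

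NDUFB6, an accessory subunit of complex I, had one of the larger RNA estimates, 1.23, with an SE of 0.55, fitted counts of 89 and 208 and a DESeq2 adjusted p of 0.101, and was not called.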
